A study of Homo sapiens with 12 samples.

Results

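The colony-stimulating factors are secreted cytokines that drive the production, survival and activation of myeloid cells. RNA-seq reads of the 3 genes that encode them, CSF1, CSF2 and CSF3, were followed in 12 libraries of MDA-MB-231-ERβ cells. The 3 genes were found by symbol among 12451 gene entries, and all 3 were among the 11303 genes with enough reads to be tested. They were chosen by their measured levels in these same 12 libraries, so their levels and differences are given as a description, with the spread between replicates and no p-value.

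MDA-MB-231 is a triple negative breast cancer (TNBC) cell line, and the derived line carries full length ERβ, the second estrogen receptor, behind a doxycycline (dox)-inducible promoter. Cells of all 4 groups were seeded in medium with charcoal-stripped serum and dox, so ERβ was induced in the controls as well. The groups received vehicle (ethanol), 20 ng/ml TNFα for the final 3 h, 1 nM estradiol (E2) for 5 days, or E2 for 5 days with TNFα for the final 3 h (E2+TNFα). Each group had 3 replicate libraries. Dox is missing from the treatment label of the E2+TNFα group and was taken from the protocol shared by all samples. The study's methods describe the replicates as separate dishes of this 1 line, so the spread between them, and every p-value that rests on it, is that between dishes.

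CSF1 (macrophage colony-stimulating factor, M-CSF) acts on monocytes and macrophages through the receptor tyrosine kinase CSF1R. CSF2 (granulocyte-macrophage colony-stimulating factor, GM-CSF) binds a receptor made of CSF2RA and the common beta chain CSF2RB, which signals through the kinase JAK2 to STAT5. CSF3 (granulocyte colony-stimulating factor, G-CSF) raises neutrophil output through CSF3R. All 3 are known to be induced by inflammatory signals such as TNFα through NFκB, and their mRNAs carry AU-rich elements in the 3′ untranslated region (UTR) that shorten mRNA life. Tumor cells can make these cytokines.

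In the hg38 coordinates of the count table, CSF1 lies at chr1:109910611-109930994, CSF2 at chr5:132073792-132076170 and CSF3 at chr17:40015361-40017813, all on the plus strand. The summed exon length was 4915 bases for CSF1, 785 bases for CSF2 and 1768 bases for CSF3. Exon GC content was 57.8% for CSF1, 50.3% for CSF2 and 59.9% for CSF3.

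The AU-rich stretches are shown because they are the sequence feature that the 3 transcripts share. For each gene the 30 bases of the 3′ UTR with the most ATTTA pentamers are printed from the hg38 genome, within the 3′ UTR of the GENCODE v44 representative transcript, with the pentamers in capitals.
CSF1, chr1:109930911-109930940, plus strand: tttatataaagtcATTTAaatatctATTTA
CSF2, chr5:132076072-132076101, plus strand: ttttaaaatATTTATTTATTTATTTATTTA
CSF3, chr17:40016975-40017004, plus strand: tcccatgtATTTAtctctATTTAatATTTA

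The CSF2 window held 5 overlapping pentamers, the CSF3 window 3 and the CSF1 window 2. Over the whole 3′ UTR there were 4 pentamers in 2154 bases of CSF1, 8 in 318 bases of CSF2 and 7 in 854 bases of CSF3. The nonamer TTATTTATT, which contains the pentamer, was found 3 times in CSF2 and not in CSF1 or CSF3. Among 18780 protein-coding 3′ UTRs with a median length of 1088.5 bases, 68.3% held the pentamer and 8.6% the nonamer. The search covered the transcript strand, and a match is a stretch of letters, not a measured decay site.

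CSF1 and CSF3 had no entry among the promoter sequences used, so only the promoter of CSF2 was examined and is shown. These are the 250 bases before the RefSeq start of the gene (GRCh38.p14, chr5:132073539-132073788, plus strand), with the CK-1 core GAGATTCC, an element described in the promoters of several cytokine genes, in capitals.
CSF2: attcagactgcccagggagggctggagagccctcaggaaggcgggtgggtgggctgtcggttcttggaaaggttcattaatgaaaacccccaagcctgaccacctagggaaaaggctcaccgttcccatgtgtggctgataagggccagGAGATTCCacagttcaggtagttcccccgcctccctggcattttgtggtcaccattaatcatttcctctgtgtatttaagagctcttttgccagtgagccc

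The CK-1 core began 101 bases before the start, on the plus strand. Both strands of these bases and of the 50 bases that follow the start were searched, and the same 300-base window of 35116 RefSeq promoters held the CK-1 core in 0.869%. The core was searched for as an element already described in cytokine promoters, so its match in CSF2 is a description and no test against this share. The NFκB consensus was present in 11.3% of those windows, the AP-1 element TGANTCA in 7.71% and TATAAA in 11.5%. None of those 3 motifs matched in the window of CSF2. Only exact matches of 1 letter pattern for each motif were counted, so variant sites would be missed and their absence cannot be concluded.

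The libraries held 7.65 to 39.9 M reads assigned to genes (M, mega), and the E2 libraries were the shallowest, with a median of 11.9 M against 37.5 M for vehicle. The vehicle libraries stood apart from the other 9 across all genes. Their rank correlation with libraries of the other groups was 0.706 to 0.863, while libraries of the other 3 groups correlated at 0.928 to 0.989 with each other and replicates at 0.973 to 0.998. The first principal component carried 68.7% of the variance. Comparisons with vehicle therefore carried a difference between libraries that reached most genes, and treatment and preparation as its source cannot be told apart. ESR2, the gene of the induced ERβ, was at 472.5 ± 14.9 CPM in vehicle, 255 ± 26.7 CPM in TNFα, 306 ± 14.7 CPM in E2 and 448.5 ± 53.2 CPM in E2+TNFα (mean ± SD, n = 3). CPM are the reads of a gene for each mega of reads in its library, after scaling of the libraries by the trimmed mean of M values (TMM).

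Markers of the cell line were as labelled for the most part. VIM, CD44 and AXL, genes of mesenchymal-like breast cancer cells, were at group means of 755 to 1807 CPM. CDH1, which encodes E-cadherin, had 3.15 ± 0.525 CPM in vehicle and 1.90 ± 0.192 CPM in TNFα, but 41.0 ± 11.0 CPM in E2 and 40.7 ± 5.02 CPM in E2+TNFα. EGFR had 251 ± 28.4 CPM in vehicle, 249 ± 27.1 CPM in TNFα, and 68.6 ± 11.3 CPM in E2 and 90.9 ± 8.35 CPM in E2+TNFα. GATA3, a luminal gene, had group means of 4.69 to 13.0 CPM, and ERBB2, which is low or absent in this subtype at the protein level, had group means of 93.9 to 108 CPM. ESR1, PGR and FOXA1 were not analysed here.

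Leukocytes are a major source of these cytokines, and 4 of 7 leukocyte markers could be examined. CD14 was at 0.556 to 1.89 CPM over the 12 libraries and CSF1R at 1.11 to 3.07 CPM. LYZ had group means of 0.102 CPM in vehicle, 0.199 CPM in TNFα, 1.68 CPM in E2 and 2.34 CPM in E2+TNFα, so it was higher in the groups where CSF3 was low, and any part of it in the CSF3 levels was not tested. At the thresholds given below, LYZ was called higher in E2 relative to vehicle (log2 difference 4.07, SE 0.549) and in E2+TNFα relative to TNFα (3.43, SE 0.491). Its levels of 0.102 ± 0.063 CPM in vehicle and 0.199 ± 0.142 CPM in TNFα rest on few reads, so the size of these differences is uncertain. CD68, a lysosomal gene that many cell types express, had group means of 89.1 to 99.3 CPM and was not called. PTPRC, ITGAM and CD3E were not analysed here.

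CSF2 had the highest level per length of the 3 genes in every group. Its mean RPKM (CPM per kilobase of exon) was 175 in vehicle, 1042 in TNFα, 98.0 in E2 and 340.5 in E2+TNFα. CSF1 was next, with a mean RPKM of 14.7, 144, 20.4 and 55.0 in the same order of groups. CSF3 was lowest, with a mean RPKM of 6.96, 63.9, 0.806 and 2.01. All 12 libraries had an RPKM of at least 1 for CSF1 and CSF2, and 9 libraries did for CSF3, when RPKM was taken from the library totals without TMM.

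CSF1 was expressed in untreated cells and highest with TNFα alone. In vehicle it was at 75.9, 71.6 and 69.1 CPM in replicates 1, 2 and 3, and in TNFα at 714, 704 and 701 CPM. In E2 it was at 89.6, 118 and 93.7 CPM, and in E2+TNFα at 259, 220 and 332 CPM. By group mean, vehicle was lowest, then E2, then E2+TNFα, and TNFα was highest. The reads behind these values ran from 739 in E2 replicate 2 to 21692 in TNFα replicate 1. The SD was 0.973% of the mean in TNFα and 21.0% of it in E2+TNFα, so the replicates with TNFα alone were much closer to each other. In bulk RNA a lower level can mean fewer expressing cells or less RNA per cell, and these cannot be told apart.

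CSF2 was also highest with TNFα alone, but it was lowest with E2. In vehicle it was at 138, 135 and 139 CPM, and in TNFα at 864, 852 and 739 CPM. In E2 it was at 72.0, 81.3 and 77.4 CPM, and in E2+TNFα at 260, 242 and 300 CPM. By group mean, E2 and vehicle stood in the opposite order from that of CSF1. Reads ranged from 510 in E2 replicate 2 to 26234 in TNFα replicate 1.

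CSF3 had the widest range of the 3 genes. In vehicle it was at 13.5, 11.5 and 11.9 CPM, and in TNFα at 113, 102 and 123 CPM. In E2 it was at 0.753, 2.07 and 1.45 CPM, and in E2+TNFα at 2.66, 3.01 and 4.97 CPM. The CSF3 mean was 1.42 CPM in E2 and 3.55 CPM in E2+TNFα, both below the 12.3 CPM of vehicle. This order was found in CSF3 and not in CSF1 or CSF2, for which E2+TNFα was above vehicle.

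The low CSF3 values rest on few reads. There were 11, 13 and 16 reads in the E2 libraries and 43, 86 and 166 in the E2+TNFα libraries, against 488 to 559 in vehicle and 2370 to 3443 in TNFα. The 95% Poisson interval of the 13 reads in E2 replicate 2 was 6.92 to 22.2 reads, and that of the 43 reads in E2+TNFα replicate 1 was 31.1 to 57.9 reads. These intervals cover counting error only. The SD of CSF3 was 46.4% of the mean in E2 and 35.2% in E2+TNFα, against 8.74% in vehicle and 9.40% in TNFα.

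**Figure D1:**
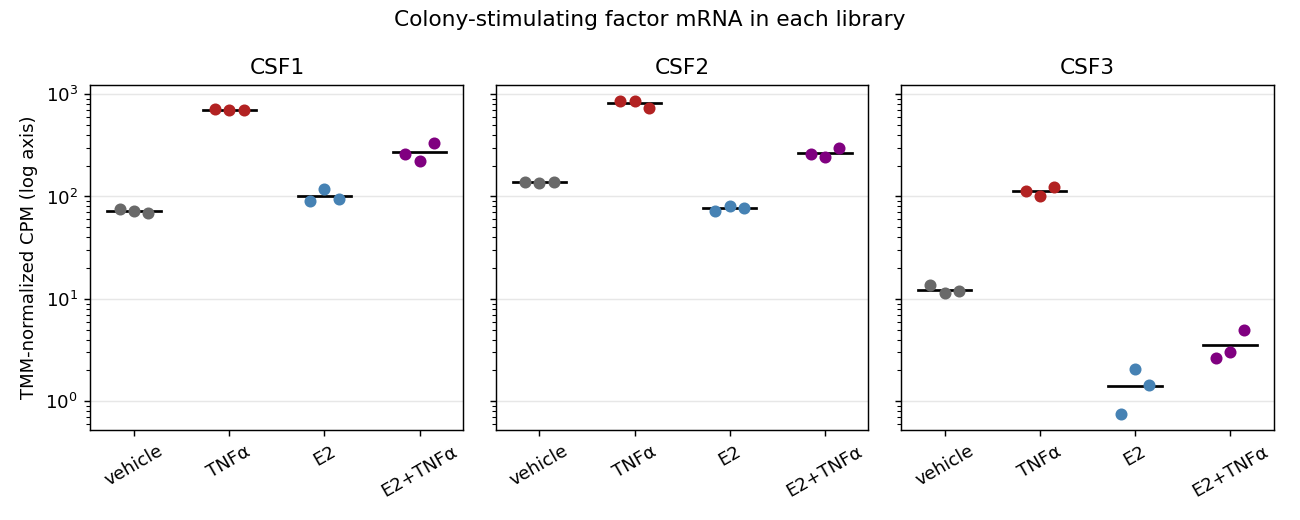
CPM of CSF1, CSF2 and CSF3 on a log axis in each of the 12 libraries (points), with the group mean as a bar. TNFα alone was the highest group for all 3 genes, and for CSF3 the E2+TNFα libraries, at 2.66 to 4.97 CPM, sat below the vehicle libraries, at 11.5 to 13.5 CPM.

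The first comparison asked how the 3 genes stood after TNFα in cells without E2. The fitted difference between TNFα and vehicle was 3.29 (log2, SE 0.156) for CSF1, or 9.79-fold higher. It was 2.58 (SE 0.118) for CSF2, 5.97-fold higher, and 3.20 (SE 0.217) for CSF3, 9.17-fold higher. These were 17.4 to 46.8 times the SD between replicates. That SD is, here and below, the square root of the summed squares of the SDs of log2 CPM in the groups compared. Across all 11303 genes the median difference was 0.01, and 78 genes had a larger one than CSF1, 163 a larger one than CSF2 and 85 a larger one than CSF3. Genes were called at an absolute log2 difference of at least 1.5, p under 0.05 and an adjusted p of at most 0.1, and 751 genes (6.64%) were called higher and 2265 (20.0%) lower. With a factor of unwanted variation estimated from housekeeping genes, as RUVg does, the differences shrank to 2.31 for CSF1, 2.17 for CSF2 and 1.85 for CSF3, and all 3 stayed positive.

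The second comparison set E2 against vehicle, and here the 3 genes went different ways. CSF3 was lower with E2, by a fitted difference of -3.25 (log2, SE 0.294), or 9.51-fold. CSF2 was lower by -0.84 (SE 0.114), or 1.78-fold. CSF1 was higher by 0.47 (SE 0.145), or 1.39-fold, but this direction turned to -1.08 with the unwanted-variation factor and to -0.090 once each library's trend with exon GC content and gene length was removed. The CSF1 difference was 2.11 times the SD between replicates, that of CSF2 9.12 times and that of CSF3 4.59 times. For CSF2 and CSF3 both of those alternatives gave a lower value, -1.48 and -1.58 for CSF2 and -5.34 and -4.19 for CSF3. Among all genes 1116 (9.87%) were called higher and 2331 (20.6%) lower.

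The third comparison asked where the 3 genes stood after TNFα when the cells had been in E2 for 5 days. E2+TNFα was below TNFα for each gene. The fitted difference was -1.38 (log2, SE 0.145) for CSF1, 2.61-fold lower. It was -1.61 (SE 0.114) for CSF2, 3.06-fold lower, and -4.96 (SE 0.243) for CSF3, 31.1-fold lower. CSF3 was among the lowest of all 11303 genes tested, and 2 genes had a more negative difference. These were DMBT1 at -5.20 (SE 0.332) and GDF15 at -7.58 (SE 0.585), named after their values had been seen. For CSF1 and CSF2, 276 and 183 genes were more negative. Of all genes 401 (3.55%) were called higher and 227 (2.01%) lower.

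This comparison holds no vehicle library, and its values moved little with the processing. Over 11 other ways of processing and with each of the 6 libraries left out in turn, the difference ran from -1.56 to -1.26 for CSF1, from -1.74 to -1.55 for CSF2 and from -5.30 to -4.81 for CSF3.

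The fourth comparison measured the response to TNFα within E2. All 3 genes were higher in E2+TNFα than in E2, by 1.43 (log2, SE 0.147) for CSF1, 1.80 (SE 0.116) for CSF2 and 1.49 (SE 0.318) for CSF3. These are 2.70-fold, 3.48-fold and 2.81-fold. For CSF3 the difference was 1.77 times the SD between replicates, against 3.92 times for CSF1 and 9.97 times for CSF2, and leaving out single libraries moved it between 1.11 and 1.74. Few genes were called in this comparison, with 44 (0.389%) higher and 2 (0.0177%) lower. More positive differences than those of CSF1, CSF2 and CSF3 were found for 75, 45 and 69 of the 11303 genes.

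The interaction is the response to TNFα in E2 minus the response to TNFα in vehicle. It was -1.86 (log2, SE 0.205) for CSF1, -0.78 (SE 0.159) for CSF2 and -1.71 (SE 0.406) for CSF3. The CSF1 value was 4.98 times the SD between replicates, that of CSF2 3.53 times and that of CSF3 1.99 times. Over all genes 2543 (22.5%) had a positive call and 1050 (9.29%) a negative call. The interaction uses the vehicle libraries and was less steady, since with the unwanted-variation factor it became -0.47 for CSF1, -0.20 for CSF2 and 0.17 for CSF3, which turned its sign. With the trend with GC content and length removed it was -1.23, -0.16 and -0.68.

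**Figure D2:**
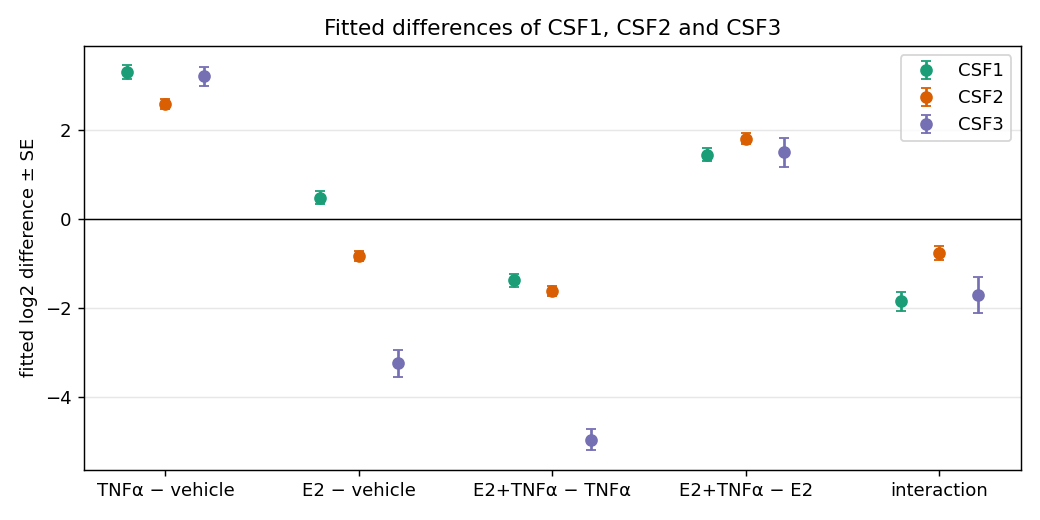
Fitted log2 differences of CSF1, CSF2 and CSF3 in the 4 comparisons and the interaction, with bars of 1 SE. CSF3 was the lowest of the 3 in E2 relative to vehicle (-3.25) and in E2+TNFα relative to TNFα (-4.96), and the small positive CSF1 value in E2 relative to vehicle (0.47) turned negative under 2 other ways of processing.

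**Figure D3:**
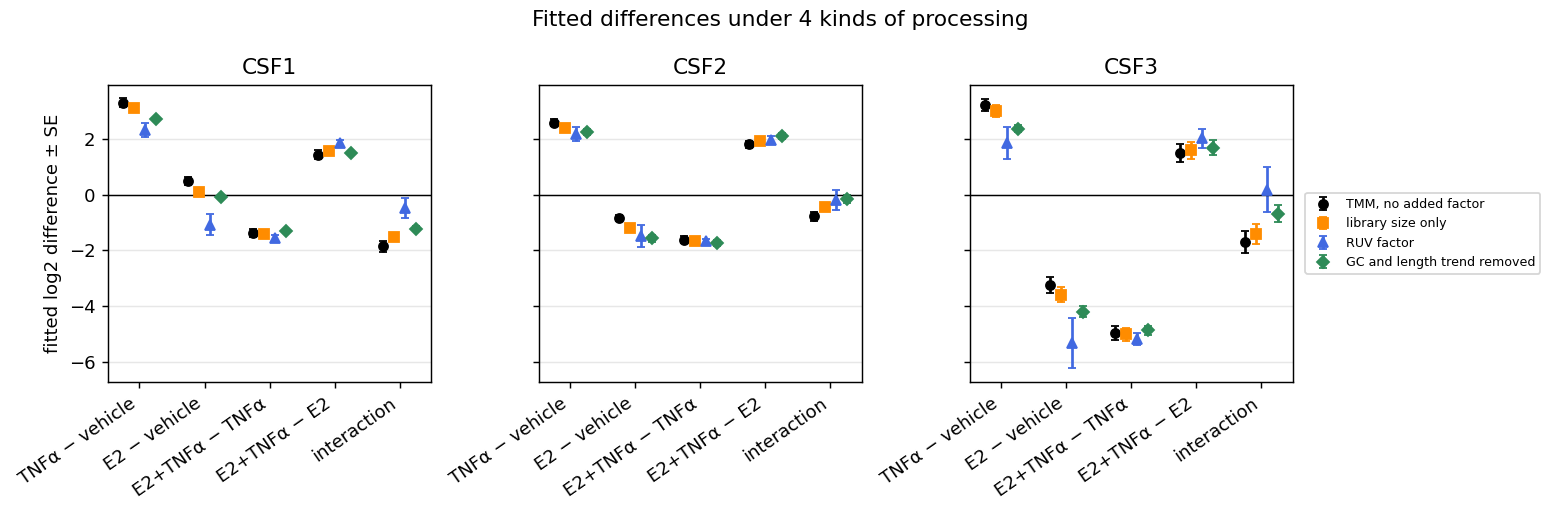
The same fitted log2 differences under 4 ways of processing, with bars of 1 SE and 1 panel for each gene. Values that compare E2+TNFα with TNFα lay within -5.17 and -4.88 for CSF3 over the 11 alternatives, while those that use vehicle moved, and CSF1 in E2 relative to vehicle and the interaction of CSF3 changed sign.

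Ratios between the 3 genes within a library do not depend on how libraries are scaled to each other. They can still depend on a library's trend with GC content and gene length, which was not removed from them. This comparison of ratios was added after the levels had been seen. CSF3 per length was 49.5%, 44.6% and 48.0% of CSF1 in the 3 vehicle libraries and 44.1%, 40.3% and 48.9% of it in the TNFα libraries. These groups overlapped, with means of 47.4% ± 2.54 and 44.4% ± 4.29 (SD, n = 3). In E2 the ratio was 2.34%, 4.89% and 4.29%, and in E2+TNFα it was 2.85%, 3.80% and 4.16%. The E2 and E2+TNFα groups overlapped as well, at 3.84% ± 1.34 and 3.60% ± 0.678, and both lay far below the groups without E2. The ratio of CSF3 to CSF1 thus separated the 6 libraries with E2 from the 6 without, and did not separate libraries with TNFα from those without it.

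CSF1 relative to CSF2 differed between groups in another way. The ratio was 8.41% ± 0.456 in vehicle, 13.9% ± 1.13 in TNFα, 20.8% ± 2.07 in E2 and 16.0% ± 1.58 in E2+TNFα. Vehicle libraries, at 7.92% to 8.82%, were below all others, and E2 libraries, at 19.3% to 23.1%, were above all others. The TNFα libraries ran from 13.2% to 15.2% and overlapped with the E2+TNFα libraries, which ran from 14.5% to 17.7%. CSF3 relative to CSF2 was 3.98% ± 0.329 in vehicle, 6.18% ± 1.09 in TNFα, 0.809% ± 0.334 in E2 and 0.581% ± 0.143 in E2+TNFα, and the latter 2 groups overlapped.

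Of the summed RPKM of the 3 genes, CSF2 made up 89.0% ± 0.583 in vehicle, 83.3% ± 1.51 in TNFα, 82.3% ± 1.56 in E2 and 85.8% ± 1.23 in E2+TNFα. The share of CSF3 was 3.54% ± 0.271 and 5.14% ± 0.807 without E2, and 0.662% ± 0.264 and 0.497% ± 0.116 with E2. CSF1 made up the rest.

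**Figure D4:**
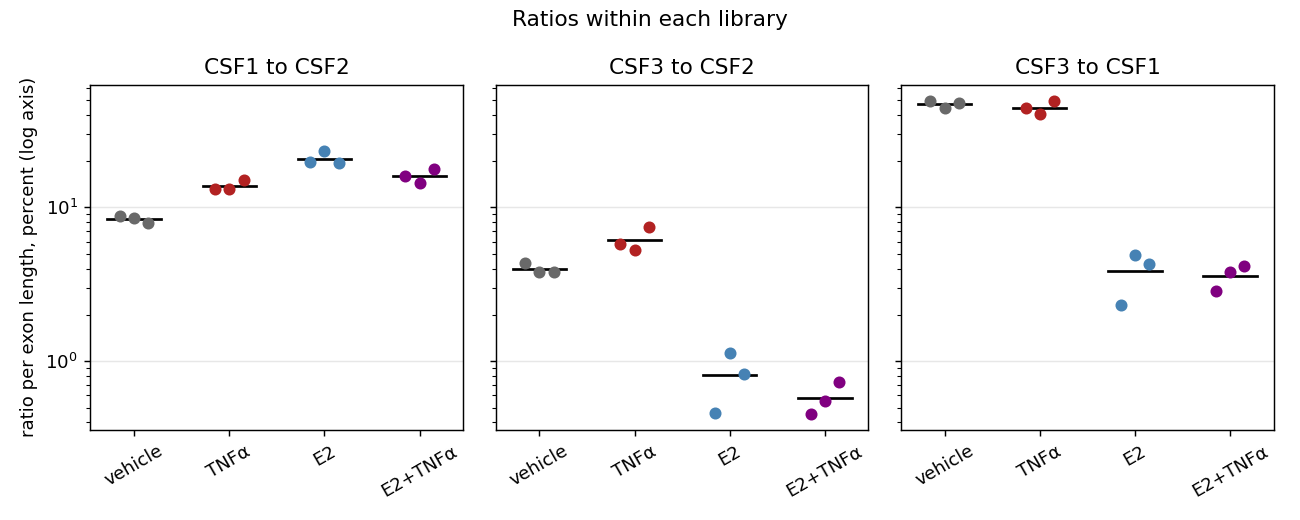
Ratios of the RPKM of 2 of the 3 genes within each library, in percent on a log axis, with the group mean as a bar. CSF3 relative to CSF1 was 40.3% to 49.5% in the 6 libraries without E2 and 2.34% to 4.89% in the 6 libraries with E2.

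Receptors and related ligands came next, since a cell that makes these cytokines may or may not be able to respond to them. Of 9 such genes 3 were in the table and 1 could be tested. CSF2RA, the ligand-binding chain of the GM-CSF receptor, was at 59.8 ± 4.21 CPM in vehicle, 49.1 ± 5.32 CPM in TNFα, 52.2 ± 1.99 CPM in E2 and 48.4 ± 1.85 CPM in E2+TNFα, and it was not called in any comparison. It lies in the pseudoautosomal region, a sequence shared by the X and Y chromosomes. How reads of that sequence were assigned is not known, so its level is uncertain. CSF2RB, the chain that signals, reached at most 3.15 CPM and an RPKM of at least 1 in 0 libraries. CSF1R had 14 to 90 reads and likewise no library with an RPKM of 1. CSF3R, IL3RA and IL5RA were not analysed here, and neither were the ligands IL34, IL3 and IL5, which share these receptors or their chains.

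Signal transducers and response genes of these receptors were examined as a list of 30 genes, of which 27 were tested. With TNFα relative to vehicle 2 rose and 3 fell, with E2 relative to vehicle 3 rose and 4 fell, and in E2+TNFα relative to TNFα 3 rose and 2 fell. The median log2 difference of the list was 0.27, 0.14 and 0.02 in these comparisons, beside medians of 0.01, -0.02 and 0.04 over all genes. Adjusted p-values below are from the quasi-likelihood test of edgeR with Benjamini-Hochberg adjustment over all 11303 genes. In all 4 lists together 47 genes were tested, and the counts higher and lower were 3 and 6 with TNFα, 3 and 7 with E2, and 3 and 2 in E2+TNFα relative to TNFα, to be read beside the shares of all genes given above.

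The calls of E2+TNFα relative to TNFα involved 5 transducer genes. JAK1, a cytokine receptor kinase, rose by 1.59 (log2, SE 0.135, adjusted p = 2.94e-07), from 128 ± 5.24 CPM in TNFα to 384 ± 50.4 CPM. CISH, a feedback inhibitor that STAT5 induces, rose by 3.50 (SE 0.321, adjusted p = 6.27e-07), from 0.880 ± 0.261 CPM to 10.2 ± 2.38 CPM, and it also rose by 3.15 in E2 relative to vehicle. CCND1, which encodes cyclin D1, rose by 1.54 (SE 0.106, adjusted p = 2.56e-08), and by 1.53 in E2 relative to vehicle. The inhibitors SOCS2 and SOCS3 fell, with log2 differences of -2.74 (adjusted p = 1.47e-06) and -1.61 (adjusted p = 5.45e-07). SOCS2 also fell in E2 relative to vehicle, with a difference of -1.89, while that of SOCS3 was -0.20 and not called. Among inhibitors, then, CISH was higher and SOCS2 and SOCS3 lower in the E2+TNFα libraries. The CCND1 call was lost without TNFα replicate 1, at 1.495, and its call in E2 without vehicle replicate 3, E2 replicate 1 or E2 replicate 3, at 1.41 to 1.495. The SOCS3 call was lost without E2+TNFα replicate 2, at -1.499.

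Against vehicle, MYC rose with TNFα by 1.69 (SE 0.137, adjusted p = 6.97e-08), and BCL2L1, which encodes the survival protein Bcl-xL, rose with TNFα by 1.54 and with E2 by 2.13. The BCL2L1 call with TNFα was lost without TNFα replicate 3, at 1.46, and both TNFα calls were lost with library size only, at 1.49 for MYC and 1.33 for BCL2L1. PIK3CA, SOS1 and PTPN11, which relay signals from cytokine and growth factor receptors, fell with TNFα, with differences of -3.33 to -2.25, and with E2, with differences of -3.58 to -2.04, but PIK3CA turned to 0.084 with TNFα and 1.62 with E2 under the unwanted-variation factor, and SOS1 to 0.47 with E2 once the GC and length trend was removed. Their levels were nearest to each other in the 3 groups other than vehicle. PTPN11, for instance, was at 231 ± 40.1 CPM in vehicle and at 48.7 ± 7.09, 34.3 ± 5.00 and 49.1 ± 10.2 CPM in TNFα, E2 and E2+TNFα. STAT5A was not called, at 38.2 ± 1.03 CPM in vehicle, 74.2 ± 3.14 CPM in TNFα, 39.0 ± 5.39 CPM in E2 and 87.5 ± 15.7 CPM in E2+TNFα. JAK2 and INPP5D were not analysed here, and SOCS1, at group means of 0.608 to 1.45 CPM, was not called.

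Proteins that bind AU-rich or stem-loop elements and shorten or extend mRNA life formed a list of 15 genes, all tested. With TNFα 1 rose and 2 fell, and with E2 0 rose and 3 fell. In E2+TNFα relative to TNFα none passed the thresholds in the edgeR fit. There 8 had an unadjusted p under 0.05 and 8 an adjusted p of at most 0.1, so these missed only the log2 threshold. The differences of the list ran from -1.32 for ZFP36L1 to 1.23 for ZFP36. DESeq2 likewise called 0 of the 15. ZC3H12A, an endonuclease that cleaves cytokine mRNAs, rose with TNFα by 2.82 (SE 0.149, adjusted p = 1.25e-09), from 40.0 ± 1.94 to 283 ± 2.01 CPM. It was at 98.4 ± 20.1 CPM in E2 and 144 ± 20.0 CPM in E2+TNFα. RC3H1 and RC3H2, the Roquin proteins that bind stem-loops, fell with TNFα, with differences of -1.75 and -2.19, and with E2, with differences of -1.92 and -1.85, but RC3H1 turned to 0.78 with TNFα and 0.72 with E2 once the GC and length trend was removed, and RC3H1 and RC3H2 to 0.11 and 0.73 with E2 under the unwanted-variation factor. CNOT1, the scaffold of the deadenylase complex, fell with E2, with a difference of -1.65. The 4 genes for shedding membrane-bound ligands, of which CSF1 is one, held 1 call, a fall of ADAM10 with TNFα (log2 difference -2.01, SE 0.173, adjusted p = 1.2e-07). ADAM17 was at 43.6 ± 5.56 CPM in vehicle, 39.9 ± 4.78 CPM in TNFα, 23.3 ± 3.87 CPM in E2 and 24.2 ± 5.26 CPM in E2+TNFα, without a call.

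Between E2+TNFα and E2 none of the 47 genes was called by edgeR, and DESeq2 called 0. By edgeR 8 had an unadjusted p under 0.05 and 3 an adjusted p of at most 0.1. Without E2 replicate 3, 1 of them was called and 84 of all genes in place of 46. In the interaction 6 were called positive and 2 negative. Most calls against vehicle depended on the processing. Of 34 calls among the genes of these lists and the neighbours described next, 20 no longer passed and 6 changed sign with the unwanted-variation factor, and 18 no longer passed and 5 changed sign with the GC and length trend removed. The rise of ZC3H12A with TNFα and the 5 calls of E2+TNFα relative to TNFα passed under both.

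Genes near the 3 loci were examined to see whether neighbours moved with them. With a midpoint within 250 kb, CSF1 had 6 neighbours, CSF2 had 3 and CSF3 had 10, of which 6, 3 and 9 were tested. No neighbour of CSF1 or CSF2 was called by edgeR or DESeq2 in any comparison, with 1 to 4 of the 6 and 0 to 2 of the 3 at an unadjusted p under 0.05. This is to be read beside the shares of all genes given above. Below the log2 threshold some neighbours did move. PDLIM4 near CSF2 differed by 1.28 with TNFα and -0.51 in E2+TNFα relative to TNFα, and CASC3 near CSF3 by 0.79 and -0.55. In the same comparisons GSTM3 near CSF1 went the other way, at -1.21 and 0.33, as did GSDMB near CSF3, at -1.48 and 0.65. In E2+TNFα relative to TNFα the neighbours of CSF1 had fitted differences of -0.35 to 0.33, those of CSF2 of -0.51 to 0.23 and those of CSF3 of -0.55 to 0.65. The 3 colony-stimulating factors, at -1.38, -1.61 and -4.96, were outside these ranges. They were chosen by their levels in these libraries and the neighbours were not, so this is a description and no test.

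The called neighbour was GSDMB, a gasdermin gene at chr17:39904595-39919377 whose midpoint lies at -104.6 kb from that of CSF3. It fell with E2 relative to vehicle (log2 difference -1.57, SE 0.293, adjusted p = 0.000162), from 4.23 ± 0.380 to 1.35 ± 0.502 CPM. This call was lost without E2 replicate 2, at -1.38, and without E2 replicate 3, at -1.49. MED24, the nearest neighbour of CSF3 in the table, differed by 0.26 (SE 0.151) between E2+TNFα and TNFα. The glutathione S-transferase genes GSTM1, GSTM2 and GSTM3 near CSF1 are close paralogs, and reads may have been split between them.

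Likeness was measured as the Pearson correlation of log2 CPM over the 12 libraries, as a description, since the libraries share 4 treatments and a common difference of vehicle. CSF1 and CSF2 correlated at 0.929, CSF2 and CSF3 at 0.849 and CSF1 and CSF3 at 0.663. The 5 genes most like CSF1 were IRF1 (0.994), a transcription factor of the interferon response, TNF (0.976), IRAK2 (0.976), PIM3 (0.975) and BBC3 (0.969). IRF1 had group means of 15.8, 378, 29.7 and 122 CPM in vehicle, TNFα, E2 and E2+TNFα, and TNF, which encodes TNFα itself, had 0.317, 36.7, 1.24 and 8.76 CPM. Like CSF1 in these libraries, both had their lowest mean in vehicle and their highest in TNFα.

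The genes most like CSF2 were IL6 (0.989), ICOSLG (0.987), IRAK2 (0.984), PLK3 (0.979) and SLC12A7 (0.975). IL6, another inflammatory cytokine, had group means of 139, 1002, 96.2 and 361 CPM, in the same order of groups as CSF2. The genes most like CSF3 were PTPRU (0.985), G0S2 (0.982), ZFP36L1 (0.982), CLDN1 (0.981) and SMAD3 (0.980). All 5 had their lowest means in the 2 groups with E2, and G0S2, which encodes an inhibitor of lipolysis, went from 130 CPM in vehicle and 449 CPM in TNFα to 15.8 CPM in E2 and 45.1 CPM in E2+TNFα. ZFP36L1, which encodes a protein that binds AU-rich elements, was at 245 ± 17.1, 404 ± 26.5, 148 ± 22.1 and 162 ± 14.9 CPM. IRAK2 was listed for both CSF1 and CSF2, and the list of CSF3 shared no gene with the other two.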

How the data were processed

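The authors made stranded mRNA libraries (TruSeq Stranded mRNA kit), sequenced 50-base paired-end reads, mapped them to hg38 with TopHat2 2.1.0 and counted reads per gene with featureCounts, whose version is not given in the sources used here. The deposited values are raw counts, without the batch correction that the study's methods describe. Exact repeats (46) and entries with the locus of another symbol (70) were removed. From these and the deposited exon length RPKM was derived, and genes at 1 or more in at least 3 libraries (library totals, no TMM) entered the tests. The main model was edgeR 4.0.16 (R 4.3.3) with TMM scaling, 1 mean for each of the 4 groups and its quasi-likelihood test. A prior count of 2 was used for log2 CPM, as in the correlations and the SD between replicates, and was not set in the fit. Alternatives were size factors of DESeq2, library size only, a minimum of 10 counts in every library or no minimum, a block for replicate number, a factor of unwanted variation from 20 housekeeping genes, DESeq2 1.42.0, the likelihood ratio test, only the groups compared, removal of each library's GC and length trend (loess span 0.3), and each library left out. With library totals of 7.65 to 39.9 M reads, counting error among the 3 members was small except for CSF3 with E2. Other genes at low CPM also rest on few reads, among them LYZ (0.102 CPM) and TNF (0.317 CPM) in vehicle. SOCS2 (1.31 CPM) and GSDMB (1.35 CPM) in E2 are further cases.

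CSF1, CSF2 and CSF3, the gene lists and the tests were chosen with earlier results of these data known. Some genes of the lists are not reported here and were left out of every count of a list. Genes named are the 3 members, the called genes of the receptor, transducer, mRNA decay and shedding lists, all receptors, called neighbours, the 5 genes most like each member, and the markers. Other genes named (DMBT1, GDF15, STAT5A, SOCS1, ADAM17, ZFP36, MED24, PDLIM4, CASC3, GSTM1, GSTM2, GSTM3) were chosen after their values were seen. Replicate numbers did not pair the libraries, as 5 of 18 same-numbered pairs deviated together (r above 0.1).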

Additional observations from a re-analysis of the deposited data

Results flagged for a closer look

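In 9 genes the response to TNFα differed between cells in E2 and cells in vehicle, by the interaction term of the edgeR quasi-likelihood fit (log2). Such calls were common, with 22.5% of all 11303 genes called positive and 9.29% negative. Of the 47 genes of the lists 6 were called positive and 2 negative, and GSDMB was a neighbour of CSF3. The difference was 4.06 for PIK3CA (adjusted p = 4.44e-05), 2.71 for SOS1 (adjusted p = 6.09e-06) and 2.75 for PTPN11 (adjusted p = 7.14e-07) among the signal relays. It was 2.18 for RC3H1 (adjusted p = 4.77e-05) and 2.32 for RC3H2 (adjusted p = 4.63e-05) among the mRNA decay factors, 2.33 for the protease ADAM10 (adjusted p = 1.54e-06) and 2.22 for GSDMB near CSF3 (adjusted p = 0.000179). In these 7 genes the mean was lower in TNFα than in vehicle and differed less between E2 and E2+TNFα. It was -1.86 for BCL2L1 (adjusted p = 1.03e-06) and -2.26 for ZC3H12A (adjusted p = 5.06e-07). Their differences with TNFα were 1.54 and 2.82 in vehicle and -0.32 and 0.56 in E2. None of the 9 passed with the unwanted-variation factor, which turned PIK3CA to -0.80 and RC3H2 to -0.029, and RC3H1 turned to -0.87 and SOS1 to -0.15 with the GC and length trend removed, so the stated direction of these 4 depends on the processing. Of the 9, ZC3H12A and GSDMB passed with the GC and length trend removed.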

How the results depend on the processing

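The comparison of E2+TNFα with TNFα kept the direction of all 3 genes under the 11 alternatives and 6 left-out libraries. With library size only, which put the median of all genes at -0.19 with TNFα, -0.38 with E2 and 0.31 in the interaction, TNFα relative to vehicle was 3.09 for CSF1, 2.38 for CSF2 and 3.00 for CSF3, E2 relative to vehicle was 0.10 for CSF1 and -1.20 for CSF2, and the interaction of CSF2 was -0.46. With the unwanted-variation factor the values against vehicle were 2.31, 2.17 and 1.85 with TNFα and -1.08, -1.48 and -5.34 with E2 for CSF1, CSF2 and CSF3, the interactions were -0.47, -0.20 and 0.17, and CSF1 in E2+TNFα relative to E2 was 1.84. It called 996, 1028, 98 and 627 genes with TNFα, with E2, in E2+TNFα relative to E2 and in the interaction (against 3016, 3447, 46 and 3593), and 4, 3 and 0 pathway genes with TNFα, with E2 and in the interaction. PIK3CA turned to 0.084, 1.62 and -0.80 with TNFα, with E2 and in the interaction, RC3H1 to 0.11 with E2, and RC3H2 to 0.73 with E2 and -0.029 in the interaction. With the GC and length trend removed, the same values for CSF1, CSF2 and CSF3 were 2.72, 2.25 and 2.37 with TNFα, -0.090, -1.58 and -4.19 with E2 and -1.23, -0.16 and -0.68 in the interaction, and CSF2 in E2+TNFα relative to E2 was 2.09. It called 1179, 1570 and 1556 genes and 3, 4 and 4 pathway genes with TNFα, with E2 and in the interaction, and turned RC3H1 to 0.78, 0.72 and -0.87 and SOS1 to 0.47 with E2 and -0.15 in the interaction. The replicate block with that trend removed gave 2.72, 2.26 and 2.36, then -0.090, -1.58 and -4.19, then -1.23, -0.17 and -0.71, and 2.09 for CSF2 in E2+TNFα relative to E2, with 1188, 1564 and 1543 genes and 3, 4 and 4 pathway genes called, RC3H1 at 0.77, 0.70 and -0.84 and SOS1 at 0.46 and -0.15. The cause of these changes was not tested.

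The share of calls that were higher was 24.9% with TNFα and 32.4% with E2, against 34.5% and 55.1% with the unwanted-variation factor, 46.8% and 52.7% with the trend removed and 16.4% and 17.4% with library size only. In the interaction it was 70.8%, against 58.5%, 55.1% and 83.9%, and in E2+TNFα relative to E2 it was 95.7%, against 36.7% with the factor. The numbers did not pair the libraries. The replicate block alone, for which each library was nearest to its own number in 4 of 18 pairs, left 3018, 3453, 623, 36 and 3585 genes called, against 3016, 3447, 628, 46 and 3593. The 46 genes called between E2+TNFα and E2 became 24 with at least 10 counts in every library, 30 with only those groups in the fit, and 32 to 84 (pathway genes 0 to 1) with single libraries left out, with 84 and 1 without E2 replicate 3. Of 34 named calls 5 were lost in at least 1 of these, CCND1 in 2 comparisons, BCL2L1 with TNFα, GSDMB with E2 and SOCS3. With library size only 3 were lost, MYC and BCL2L1 with TNFα and CCND1 with E2. With at least 10 counts in every library 27 of the 34 could be recomputed, and BCL2L1 with TNFα and CCND1 with E2 were lost. By Spearman correlation 0, 2 and 1 of the 5 genes most like CSF1, CSF2 and CSF3 were shared. Depth limits the values of CSF3 with E2.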
